A study of Mus musculus with 18 samples.

Results

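Brown adipose tissue, the thermogenic fat of mammals, was profiled by RNA sequencing in C57BL/6J mice given low-dose quercetin or its vehicle. The 6 brown fat libraries of the 18 in the series were taken, 3 from quercetin-treated and 3 from vehicle-treated mice; the rest came from skeletal muscle and white fat. Quercetin hydrate was given by oral gavage at 0.125 mg/kg in 100 µL of 10% PEG400 in PBS, and the vehicle group received the PEG400 solution alone, so both groups were gavaged with PEG400. The design text calls the treatment long-term. Males of 14 months and weekly dosing are stated for a lifespan experiment only; for the mice whose fat was sequenced, age, sex and treatment length are not stated here. Titles number the mice of each group, but no label says whether a library came from 1 animal or a pool, so the tests rest on the spread among libraries, which may be technical. Gene counts summed to between 8436308 and 11323696 per library, and all 6 libraries carried the same flow cell name.

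Brown fat burns fatty acids and glucose to make heat. Noradrenaline from sympathetic nerves acts on beta-adrenergic receptors, cyclic AMP rises, stored triglyceride is broken down, and the fatty acids both fuel the mitochondria and open uncoupling protein 1 (Ucp1), which lets protons back across the inner membrane without making ATP. The same cells also make fat from glucose at a high rate, through Acly, Acaca, Fasn and Scd1, and switch toward fatty acid oxidation in fasting. Quercetin is a plant flavonol known as an antioxidant, a ligand of the aryl hydrocarbon receptor and one component of senolytic drug combinations. The comparison asks which brown fat transcripts differed after the low dose.

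Levels below are read counts scaled to library size (CPM), with trimmed-mean factors over the 6 brown fat libraries unless another scale is named. Summed levels of marker lists use factors over all 18 libraries instead, so they are not on the scale of the single-gene levels. Fold changes are log2 of quercetin over vehicle, so that a negative value is lower with quercetin. By Ucp1 and Zic1 the tissue label held in all 6 libraries. Scaled over all 18 libraries, Ucp1 lay between 894 and 4745 CPM in brown fat, against at most 18.03 in white fat. In muscle it was at most 0.699 in 5 of the 6 libraries and 279.7 in the sixth. Zic1, a gene of the brown fat lineage, lay between 4.67 and 15.8 CPM against 0 in every white fat library. Cidea and Elovl3 were also higher in each brown fat library than in any other. The brown fat markers Prdm16, Dio2 and Cox8b did not separate the tissues fully. Prdm16 was at 11.6 CPM in quercetin 3 against 31.5 in white fat vehicle 1, and Dio2 at 16.2 in quercetin 3 against 17.1 in muscle quercetin 2. Cox8b was at 584 CPM in vehicle 1 against up to 958 in muscle.

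A pair of brown fat libraries stood apart from the other four, one in each group. In quercetin 3 the fast skeletal muscle markers summed to 59235.7 CPM, against 179.7 and 1894 in quercetin 2 and 1 and 628, 3695 and 11353 among the controls (muscle itself held 138000 to 245125 CPM; all on the 18-library scale). All 32 of these markers had counts in quercetin 3 and in vehicle 1, and 24 to 31 of them in the rest. Acta1, skeletal muscle actin, was at 1300.5, 53.9 and 354 CPM in vehicle 1 to 3 and at 180.4, 1.14 and 8514 CPM in quercetin 1 to 3. Quercetin 3 was also the lowest library for Ucp1, at 832 CPM against 3219 to 3980.3 in the other five. It was the highest for interferon-stimulated and chemokine transcripts: Rsad2, an antiviral enzyme, stood at 518 CPM against 15.5 to 27.3 elsewhere, and Cxcl10 at 385 CPM against 0.479 to 4.94. The neutrophil protein gene S100a9 stood there at 290.1 CPM against 10.3 to 40.6, and leptin (Lep) at 256 against 9.13 to 36.3. Markers leaning to white fat, Lep among them, summed to 1639 CPM there against 203 to 401 elsewhere, on the 18-library scale. How far other cells in the dissected piece and fewer transcripts per cell each contribute cannot be told apart in bulk tissue.

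Vehicle 1 stood apart in another way, in genes of fat synthesis and fat burning. Fasn, fatty acid synthase, reached only 395 CPM in vehicle 1, against 6561 to 30532 CPM elsewhere. Acly, which makes cytosolic acetyl-CoA, was at 100.5 CPM there against 554 to 6029.7. Adrb3, the main beta-adrenergic receptor of mouse fat, was at 3.46 CPM against 96.2 to 719. Cpt1a, which admits fatty acids to mitochondria, was at 108 CPM against 9.25 to 17.4, the stress-induced pseudokinase gene Trib3 at 137 against 6.90 to 13.4, and Acot2, a mitochondrial acyl-CoA thioesterase, at 567 against 31.7 to 69.4. Vehicle 1 was thus the lowest library for these lipogenic transcripts and for Adrb3, and the highest for the last 3 genes. Log2 levels correlated at 0.970 between vehicle 2 and vehicle 3 and at 0.9496 between quercetin 1 and quercetin 2, across genes, against 0.774 to 0.915 for every pair within a group that held quercetin 3 or vehicle 1. Values without one or both of these libraries stand beside the results below that they moved most.

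**Figure D1:**
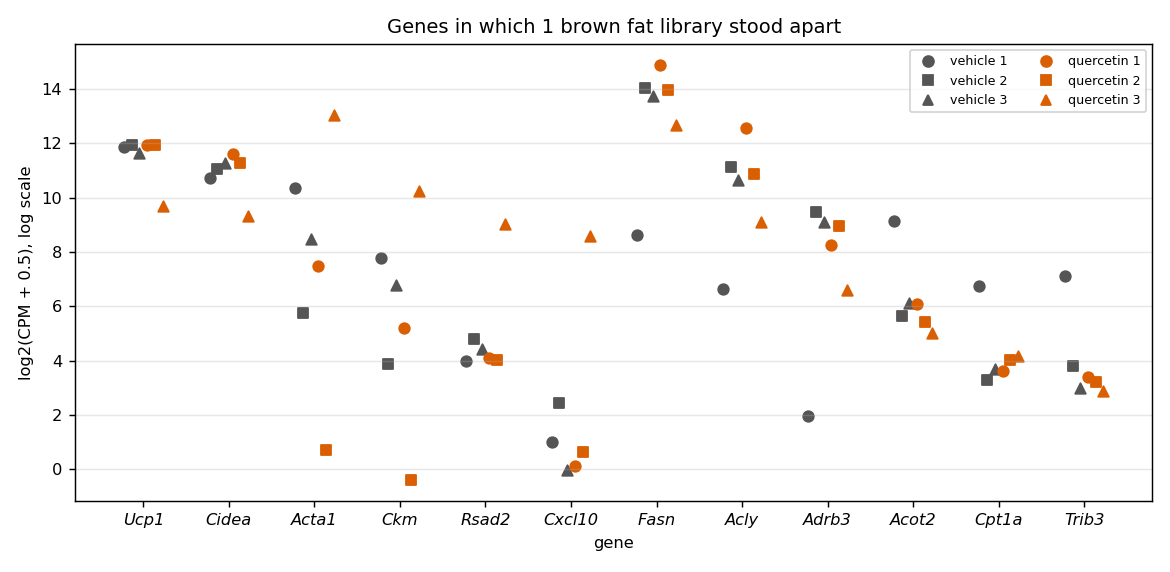
Level of 12 genes in each brown fat library as log2(CPM + 0.5), with grey symbols for vehicle and orange for quercetin and one symbol shape per replicate number. Quercetin 3 (orange triangles) is lowest for Ucp1 and highest for Acta1, Ckm, Rsad2 and Cxcl10, while vehicle 1 (grey circles) is lowest for Fasn, Acly and Adrb3 and highest for Acot2, Cpt1a and Trib3.

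No gene passed the all-gene test in brown fat. Of 13274 genes tested by edgeR's quasi-likelihood test, 0 had a Benjamini-Hochberg adjusted p under 0.05, and the smallest was 0.977. Without adjustment, 241 genes (1.82%) had p under 0.05, 108 higher (0.814%) and 133 lower (1%) with quercetin. For 827 genes (6.23%) the groups did not overlap, 400 with quercetin higher (3.01%) and 427 with quercetin lower (3.22%). With no effect, 663.7 genes would be expected at that p and 10% of genes with separate groups in either direction. Both observed counts were lower, so separate groups or an unadjusted p below do not by themselves mark an effect. Without quercetin 3 the same test called 1 of 13526 genes (0.00739%), the pseudogene Gm12033. The filter had kept Gm12033 out of the fit of all 6 libraries, at 3, 1 and 4 counts with vehicle and 3850, 2582 and 3 with quercetin. It entered without quercetin 3 through its counts in quercetin 1 and 2, so there was no 6-library value to compare. In that fit 542 genes (4.01%) had an unadjusted p under 0.05, 157 higher (1.16%) and 385 lower (2.85%). DESeq2 called 3 of 25479 genes (0.0118%): Slc25a34 lower, and Alb and Gm12033 higher.

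Slc25a34, an orphan member of the mitochondrial carrier family, had the smallest p of all genes. It lay at 142, 77.4 and 77.7 CPM in the vehicle libraries and at 9.61, 19.4 and 14.9 CPM in the quercetin libraries. Every vehicle library was above every quercetin library, and quercetin 3 sat between the other two of its group. The log2 fold change was -2.75 ± 0.40 (SE, n = 3 per group; 95% interval -3.69 to -1.82), and it was called by DESeq2 (adjusted p = 1.08e-05) and not by edgeR's quasi-likelihood test (adjusted p = 0.977). Without quercetin 3 it was -2.76. Leaving out each library in turn gave between -3.01 and -2.41.

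The gene (ENSMUSG00000040740) occupies chr4:141618824-141623821 on the minus strand of mm10, in the GENCODE M21 annotation. Its promoter is shown because it belongs to the transcript with the smallest p and neighbours genes with estimates of the same sign. The stretch below holds the 250 bases before the RefSeq start (GRCm38.p6, chr4:141623835-141624084, minus strand, 5′ to 3′) and overlaps no annotated exon. Capitals mark the only match on either strand to AGGTCA, the half-site bound by many nuclear receptors, here as its reverse complement TGACCT, whose first base is 119 bases before the start.
Slc25a34 promoter: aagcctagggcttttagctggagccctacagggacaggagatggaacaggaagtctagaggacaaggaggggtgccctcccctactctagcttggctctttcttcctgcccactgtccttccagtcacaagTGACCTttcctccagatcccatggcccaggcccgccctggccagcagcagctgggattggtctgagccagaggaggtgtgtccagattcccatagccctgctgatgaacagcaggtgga
Of 32851 RefSeq promoter windows of this length, 14.0% hold AGGTCA on either strand, as do 10.9% of the 12616 windows whose genes were tested in brown fat. The match is a description of the letters and not of binding.

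Both genes that flank Slc25a34 were also among the 10 with the smallest p on the lower side. This was seen after the values were known. Plekhm2, which couples lysosomes to kinesin, lies 1912 bases upstream of it (chr4:141625734-141664899), and Tmem82, a transmembrane protein gene, starts 190 bases downstream (chr4:141613376-141618633); all are on the minus strand. Plekhm2 was at 86.8, 148 and 107 CPM with vehicle and at 34.4, 53.1 and 53.1 CPM with quercetin (-1.28 ± 0.32). Tmem82 was at 14.9, 5.83 and 4.02 CPM with vehicle and at 0.475, 1.76 and 0.389 CPM with quercetin (-3.20 ± 0.79). In both genes the groups did not overlap. The next tested genes out were nearer to no difference: Ddi2 beyond Plekhm2 gave -0.79 ± 0.42 and Fblim1 beyond Tmem82 gave -0.39 ± 0.33, each with overlapping groups. Vehicle 1 was the highest library for Slc25a34 and Tmem82 and the lowest vehicle library for Plekhm2, so the 3 genes did not follow one another within the vehicle group. An antisense transcript (AI507597) overlaps Tmem82, and the strand setting of the counting is not given in the sources used here.

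**Figure D2:**
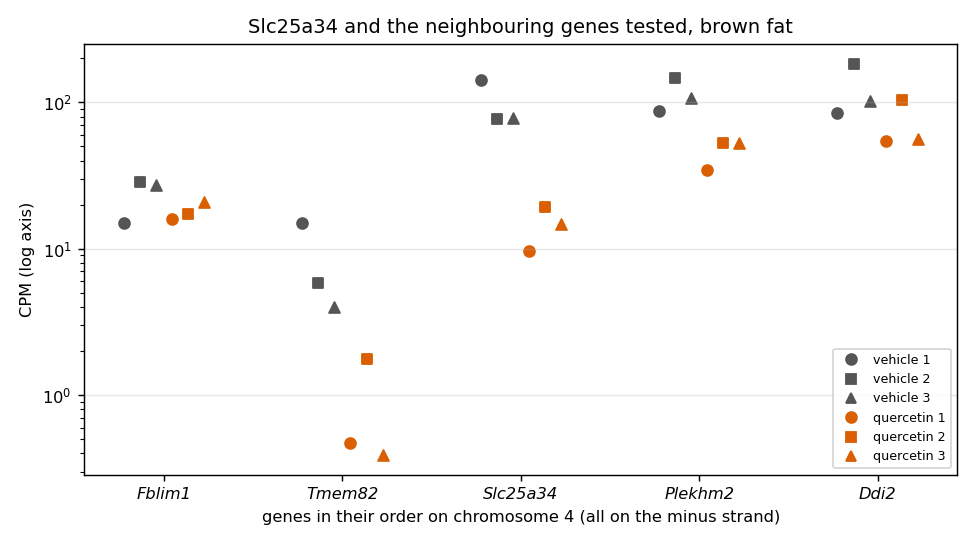
CPM (log axis) of Slc25a34 and the tested genes beside it, in their order along chromosome 4, for 3 vehicle (grey) and 3 quercetin (orange) brown fat libraries. Groups are separate for Tmem82, Slc25a34 and Plekhm2 and overlap for Fblim1 and Ddi2.

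Slc25a34, Tmem82 and Plekhm2 were followed by 7 further genes on the lower side. Tead1, a DNA-binding partner of the Hippo pathway coactivators, was at 178, 151 and 148 CPM with vehicle and at 67.7, 82.2 and 63.0 CPM with quercetin. That made its groups compact and well apart (-1.16 ± 0.26; 95% interval -1.78 to -0.55). Igfbp3, which carries insulin-like growth factors in the circulation and tissue fluid, was at 204, 105 and 83.4 CPM with vehicle and at 28.6, 40.8 and 48.7 CPM with quercetin (-1.73 ± 0.42). Its vehicle values spread more, with vehicle 1 the highest. Acer2, a Golgi ceramidase that releases sphingosine, was at 237, 217 and 189 CPM with vehicle and at 99.4, 115 and 82.3 CPM with quercetin (-1.12 ± 0.28). Plpp1, a phosphatase of lipid phosphates at the cell surface, was at 63.7, 32.7 and 48.6 against 20.5, 20.8 and 25.1 CPM (-1.13 ± 0.30). Fam117b gave -1.01 ± 0.24, and both Hif3a, a hypoxia-inducible factor subunit (-1.76 ± 0.47), and the centrosomal gene Cep126 (-2.49 ± 0.67) were under 5 CPM in every library. For all 10 genes the groups did not overlap, against 3.22% of all genes tested on the lower side. Their estimates kept their sign without quercetin 3, from -0.92 (Fam117b) to -2.83 (Tmem82). Both traits follow largely from the choice of these genes by p in the same libraries, so they lend no separate support.

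On the higher side, Ndufa12, an accessory subunit of respiratory complex I, was at 74.2, 113 and 175 CPM with vehicle and at 375, 261 and 323 CPM with quercetin. All quercetin libraries lay above all vehicle libraries (1.41 ± 0.39; 95% interval 0.49 to 2.32). Phlda3, a p53 target that restrains Akt, was at 268, 275 and 262 CPM with vehicle and at 673, 494 and 492 CPM with quercetin (1.04 ± 0.30), with the vehicle libraries almost level. Esr1, the oestrogen receptor alpha gene, was at 11.1, 14.5 and 13.0 against 24.0, 28.6 and 25.5 CPM (1.02 ± 0.26). Gypc, a red cell membrane glycophorin also made outside blood, was at 20.9, 23.1 and 27.1 against 60.7, 39.4 and 52.4 CPM (1.10 ± 0.27). The summed level of red blood cell markers overlapped between the groups, at 175.9 to 218 CPM with vehicle and 105.9 to 202.9 CPM with quercetin. Tuba8, an alpha-tubulin gene, was at 23.2, 41.8 and 40.8 against 77.6, 75.3 and 62.2 CPM (1.02 ± 0.30); it counts among the genes at least 2 log2 units higher in the muscle libraries than in brown fat, yet quercetin 3 held the lowest of its quercetin values. Smco4 gave 1.10 ± 0.31, and Wscd1 and Clec12a, a myeloid surface lectin, were under 5 CPM throughout.

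The remaining pair on that side were transcripts known mainly from other cells. Alb, serum albumin, a liver product, was at 0.177, 0 and 0.383 CPM with vehicle and at 61.2, 3.43 and 6.61 CPM with quercetin. Quercetin 1 held most of it, and the group means were 0.187 ± 0.192 and 23.8 ± 32.5 CPM (SD, n = 3). Igkv14-126, an immunoglobulin kappa variable segment, was at 1.24, 1.01 and 1.15 against 3.80, 9.93 and 5.06 CPM (2.45 ± 0.50); it shares sequence with related segments, which makes its count uncertain. The B and plasma cell markers summed to 281.7 to 384.6 CPM with vehicle and 170.5 to 558.4 CPM with quercetin; their part in the Igkv14-126 value was not tested. The adjusted p was 0.977 for each of the 20 genes with the smallest p (edgeR's quasi-likelihood test), and the exact permutation test of separate groups of 3 gives 0.1, the smallest p it allows. All 10 genes of the higher side had separate groups, against 3.01% of all genes tested, and all kept a positive estimate without quercetin 3. On this side too, both traits follow largely from the choice of the genes by p.

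**Figure D3:**
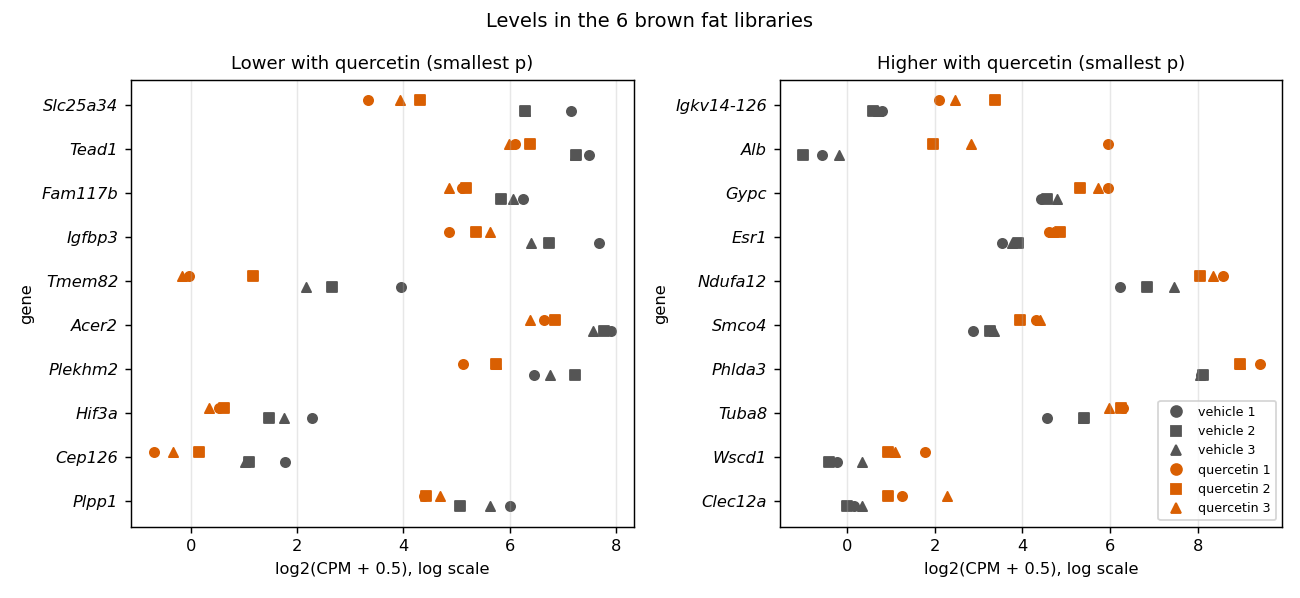
Level, as log2(CPM + 0.5), of the 10 genes with the smallest p on the lower side (left) and the higher side (right) in 3 vehicle (grey) and 3 quercetin (orange) brown fat libraries. In each of the 20 genes every orange symbol lies on one side of every grey symbol, and for Alb quercetin 1 lies well above the rest.

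Turning to pathways, thermogenic genes had no common direction that was independent of 1 library. Ucp1 was at 3723, 3952 and 3219 CPM with vehicle and at 3980.3, 3917 and 832 CPM with quercetin. Quercetin 1 and 2 lay at the upper end of the vehicle values and quercetin 3 far below them, and the fold change was -0.32 ± 0.60 with all libraries and 0.13 without quercetin 3. Cidea, a lipid droplet protein of brown fat, was at 1696, 2115 and 2476 against 3162, 2464 and 647 CPM (-0.00 ± 0.58, and 0.43 without quercetin 3). Of 34 thermogenesis and brown fat identity genes tested, 0 passed; 8 estimates were above 0 and 26 below (54.9% of all genes tested were above 0), with a median of -0.25 against 0.05 over all genes, and without quercetin 3, when 48.9% of all genes were above 0, they were 19 above and 15 below, with a median of 0.12 against -0.01 over all genes. The brown adipocyte markers summed to 8624, 11604 and 10269 CPM with vehicle and to 12484, 11059 and 3074.5 CPM with quercetin, so that list moved with quercetin 3 as well.

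A few members of this programme had estimates below 0 both with and without that library, of sizes that depended on other single libraries. Elovl3, a cold-induced fatty acid elongase, was at 894, 416 and 267 CPM with vehicle and at 233, 229.8 and 28.2 CPM with quercetin (-1.69 ± 0.81; -1.18 without quercetin 3, -1.07 without vehicle 1 and -0.58 without both). Its groups did not overlap. Ppargc1a, the coactivator PGC-1 alpha, was at 29.3, 93.2 and 28.3 against 18.2, 39.8 and 4.67 CPM (-1.26 ± 0.79; -0.45 without vehicle 2 and -2.14 without quercetin 2). Dio2, which activates thyroid hormone in the cell, was at 159, 733 and 222 against 41.5, 421 and 15.1 CPM (-1.22 ± 1.18), with replicate 2 the highest of each group. Its estimate was -0.25 without vehicle 2 and -3.71 without quercetin 2. In the other direction P2rx5, a purine receptor used as a brown adipocyte surface marker, was at 21.8, 65.9 and 52.0 against 107, 85.9 and 73.3 CPM (0.93 ± 0.42; 0.58 without vehicle 1), with separate groups. For adrenergic signalling, 0 of 21 genes passed, and the median of -0.19 moved to 0.01 without quercetin 3.

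Fat synthesis genes had estimates mostly above 0. In the list for making fatty acids and triglycerides, which held 31 genes, 27 were above 0 and 4 below, where 54.9% of all genes tested were above 0, 0 passed, and 1 had an unadjusted p under 0.05. Fasn was at 395, 17004 and 13739 CPM with vehicle and at 30532, 16115 and 6561 CPM with quercetin. Vehicle 1 lay far below the other five libraries and quercetin 1 above them, and the fold change was 0.77 ± 1.16 (95% interval -1.94 to 3.49). Leaving out 1 library at a time gave 0.12 to 1.33. Scd1, the stearoyl-CoA desaturase, was at 3673, 34012 and 24798 against 54372, 24649 and 13894 CPM (0.57 ± 0.89). Srebf1, the transcription factor that drives these enzymes, was at 149, 188 and 225 CPM with vehicle and at 321, 342 and 248 CPM with quercetin (0.70 ± 0.30); it was the steadier gene, with separate groups. Mid1ip1, a partner of acetyl-CoA carboxylase, had the smallest p of the list (1.13, and 0.56 without quercetin 3). The list's median was 0.58 with all libraries, 0.30 without vehicle 1, 0.05 without quercetin 1, 0.79 without quercetin 3, and 0.50 with both vehicle 1 and quercetin 3 left out.

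Sterol synthesis followed a similar course, with 18 of 23 estimates above 0, 0 passing and a median of 0.54, which became 0.24 without vehicle 1 and 0.06 without quercetin 1. Of the 76 nuclear genes of the respiratory chain, 74 had estimates above 0, where 54.9% of all genes tested did (median 0.32). Of these 76, 0 passed and 1, Ndufa12, had an unadjusted p under 0.05. The respiratory median was 0.10 without vehicle 1 (59 of 76 above 0), 0.08 without quercetin 1 (51 of 76) and 0.43 without quercetin 3 (74 of 76). The mean log2 level of the list stood at 8.16 for vehicle 1, at 8.81 and 8.92 in the remaining controls, and it ran from 8.72 to 9.35 with quercetin. Cytosolic ribosomal protein genes also had 74 of 77 estimates above 0 (median 0.36), and 14 of 77 without quercetin 3 (median -0.18). The 13 mitochondrially encoded genes had a median of -0.03, with -0.22 to 0.17 when 1 library at a time was left out. Fatty acid oxidation genes had 9 estimates above 0 and 23 below (32 tested, 0 passed, median -0.12), and 25 above and 7 below without quercetin 3 (median 0.24). The 23 citrate cycle genes had 15 above 0 with all libraries and all 23 above 0 without quercetin 3, with medians of 0.08 and 0.45. The direction of that list rested on single libraries, since only 5 of 23 were above 0 without vehicle 1 (median -0.11) and 4 of 23 without quercetin 1 (median -0.32).

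Among lipid storage and breakdown genes, 0 passed. Plin2, a lipid droplet coat protein, had the smallest p of its list, at 2546, 2807 and 1507 CPM with vehicle and at 1527, 1461 and 794 CPM with quercetin (-0.86 ± 0.43; -0.54 without both vehicle 1 and quercetin 3). Its groups overlapped. Pnpla2, the first lipase of triglyceride breakdown, was at 3194, 3574 and 3519 CPM with vehicle and at 4301, 3323 and 2108 CPM with quercetin (-0.08 ± 0.40). Plin1, which also coats the droplet, gave -0.28 ± 0.47. Lpl, which releases fatty acids from circulating triglyceride, was at 6411, 5561 and 5369 against 2731, 5201 and 2956 CPM; its groups did not overlap, and the fold change was -0.67 ± 0.42 (-1.02 without quercetin 2). Across 20 lipid droplet and lipolysis genes 0 passed and the median was -0.15, and across 20 fatty acid uptake genes 0 passed and the median was -0.07. Adipoq, adiponectin, was at 470.1, 661 and 889.6 against 845, 779 and 931 CPM (0.34 ± 0.35; 0.13 without vehicle 1).

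**Figure D4:**
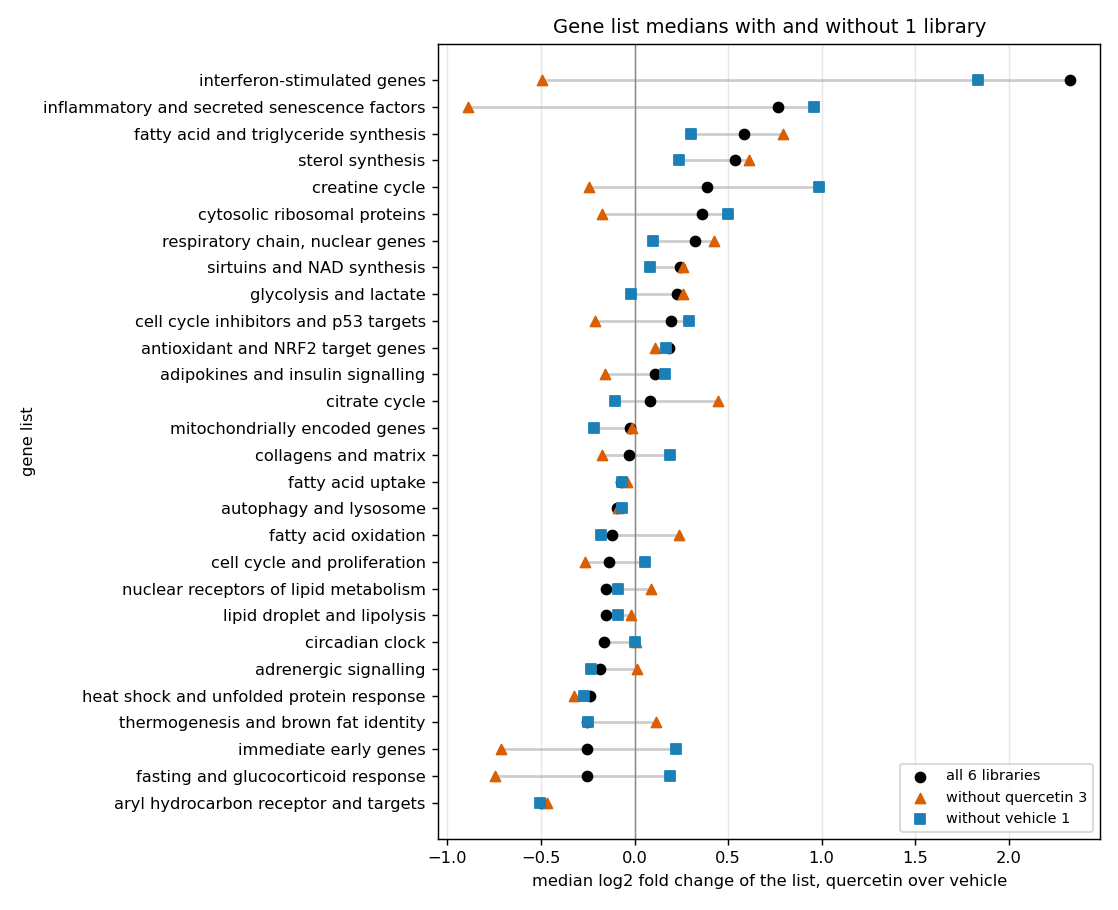
Median log2 fold change, quercetin over vehicle, of each of 28 gene lists in brown fat with all 6 libraries (black circles), without quercetin 3 (orange triangles) and without vehicle 1 (blue squares). The interferon list runs from 2.33 to -0.49 when quercetin 3 is left out, whereas fatty acid and sterol synthesis stay above 0 in all 3 and the aryl hydrocarbon receptor list lies between -0.51 and -0.47 in these 3 fits.

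The interferon and inflammatory lists turned on quercetin 3. Of 32 interferon-stimulated genes, 31 estimates were above 0 with all libraries (median 2.33, 0 passed, 0 with an unadjusted p under 0.05). Without quercetin 3, 28 were below 0 (median -0.49). With vehicle 1 left out as well, 31 were below 0 (median -0.95). Of these, 21 had an unadjusted p under 0.05, against 499 of 13210 genes on the lower side. That fit was added after the data were seen, and only Gm12033 passed in it. Isg15, a ubiquitin-like antiviral protein, was at 1.24, 23.2 and 15.3 CPM with vehicle and at 7.83, 2.29 and 752 CPM with quercetin. The inflammatory and secreted senescence factors had 23 of 31 estimates above 0 (median 0.77) and 26 of 32 below 0 without quercetin 3 (median -0.89), with 0 passing in either case. Without both libraries 23 of 31 were below 0 (median -0.65), 11 of them with an unadjusted p under 0.05. Among these, Saa3, an acute-phase protein, was at 5.32, 70.3 and 14.5 CPM with vehicle and at 1.54, 1.05 and 160.2 CPM with quercetin, and Lcn2, which binds bacterial siderophores, at 45.2, 29.7 and 27.0 against 1.78, 5.36 and 181 CPM. Quercetin 1 and 2 were below every vehicle library in both genes, while quercetin 3 was above them all. Neutrophil markers summed to 52.3 to 122.8 CPM with vehicle and to 30.4, 58.2 and 634.9 CPM with quercetin, and macrophage markers to 384 to 1185 and 349.6 to 952 CPM; their part in these values was not tested.

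The 24 fasting and glucocorticoid response genes had 11 estimates above 0 and 13 below (median -0.25, 0 passed), and 7 above and 17 below without quercetin 3 (median -0.75). Fkbp5, a glucocorticoid-induced chaperone of the receptor, was at 288, 169.7 and 252 CPM with vehicle and at 88.7, 79.2 and 300.1 CPM with quercetin, low in quercetin 1 and 2 and high in quercetin 3. This direction rested on vehicle 1 too: the median was 0.19 when that library was left out, and -0.51 when both were. Without quercetin 2 there were 12 estimates above 0 and 12 below (median -0.0065). The immediate early genes had 20 of 27 estimates below 0 (median -0.25), with a median of 0.22 without vehicle 1, 0.16 without quercetin 2 and -0.71 without quercetin 3. The heat shock and unfolded protein response genes turned on another library: 10 of 35 estimates were above 0 and 25 below (median -0.24, 0 passed), 8 above and 27 below without quercetin 3 (median -0.33), and 22 above and 13 below without vehicle 2 (median 0.36).

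In the lists for processes often linked with quercetin, 0 genes passed. Among the 7 tested genes of the aryl hydrocarbon receptor list, 6 estimates were below 0 (median -0.50) and 2 had an unadjusted p under 0.05, against 1% of all genes on the lower side. The median ran from -0.51 (without vehicle 1) to -0.30 without quercetin 1 and -0.19 without quercetin 2, and 0 genes had an unadjusted p under 0.05 without vehicle 3 or without quercetin 1. Over all 13 genes of the list, with no filter on low counts, 6 estimates were above 0 and 7 below (median -0.23). One was Cyp1b1, an oxidase that this receptor induces, at 15.9, 11.2 and 30.2 CPM with vehicle and at 8.78, 7.65 and 11.1 CPM with quercetin (-1.06 ± 0.43; -0.56 without vehicle 3). The other was Tiparp, a receptor-induced ADP-ribosyltransferase that feeds back on it, at 50.5, 57.7 and 60.7 against 41.0, 40.1 and 34.7 CPM (-0.54 ± 0.23). Both had separate groups, and neither passed. The 33 antioxidant and NRF2 target genes had a median of 0.18, with 0.11 to 0.26 when 1 library at a time was left out. The 16 sirtuin and NAD synthesis genes had a median of 0.24, which became 0.08 without vehicle 1 and 0.02 without quercetin 1. The 38 autophagy and lysosome genes had a median of -0.09, with -0.23 to -0.02 when 1 library at a time was left out.

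Of the cell cycle inhibitors and p53 targets, 0 of 25 passed, with a median of 0.19 (-0.21 without quercetin 3). Cdkn1a, the p21 inhibitor, was at 606, 277 and 248 CPM with vehicle and at 235, 92.7 and 229 CPM with quercetin, with separate groups (-1.02 ± 0.51; -0.51 without vehicle 1). Sesn2, a stress-induced sestrin, was at 74.5, 39.9 and 29.3 against 21.5, 27.9 and 16.0 CPM (-1.14 ± 0.41; -0.68 without vehicle 1). Phlda3 of the same list lay in the opposite direction. Cdkn2a, the p16 and p19Arf gene, had too few counts to be tested, with 1, 1 and 0 counts with vehicle and 0, 0 and 12 with quercetin, and Il6 had 16, 4 and 3 counts against 0, 0 and 48; in both genes quercetin 3 held the highest count. Of the 17 tested genes of the cell cycle and proliferation list, 7 estimates were above 0 and 10 below (median -0.14, and 0.06 without vehicle 1), 0 passed and 1 had an unadjusted p under 0.05. That 1 was Mki67, a marker of dividing cells, which was at 3.37, 1.52 and 2.78 against 0.593, 0.615 and 0.972 CPM (-1.80 ± 0.52).

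In vessels and matrix, Flt1, a VEGF receptor of endothelial cells, was at 379.8, 395 and 408 CPM with vehicle and at 231, 265 and 205 CPM with quercetin (-0.75 ± 0.28). The vehicle values lay close together and the groups were separate. The 17 endothelial markers had 8 estimates above 0 and 9 below (median -0.18). Their summed level nearly met between the groups, at 3241 to 3865 CPM with vehicle and 2695 to 3225 CPM with quercetin. Their mean log2 level overlapped, at 6.67 to 6.82 with vehicle and 6.42 to 6.69 with quercetin. The part of these cells in the Flt1 value was not tested. Lamb1, a laminin chain of basement membranes, was at 176, 365 and 228 against 96.9, 156 and 117 CPM (-1.05 ± 0.38; -0.70 without vehicle 2). Across 35 collagen and matrix genes 16 estimates were above 0 and 19 below, 0 passed, and the median was -0.03, with -0.25 to 0.19 when 1 library at a time was left out.

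The quercetin effect in brown fat was also tested against that in muscle and in white fat, in one fit of all 18 libraries. Of 16388 genes, 0 passed in either contrast by edgeR's quasi-likelihood test with Benjamini-Hochberg adjustment (smallest adjusted p 0.9999), and 223 (1.36%) and 173 (1.06%) had an unadjusted p under 0.05. For Slc25a34 the brown fat effect was lower than the muscle effect by -2.15 ± 1.30 and higher than the white fat effect by 1.42 ± 1.34 log2 units (adjusted p 0.9999 or more in both, edgeR). On the 18-library scale, muscle lay between 31.7 and 79.3 CPM with vehicle and between 18.6 and 43.3 CPM with quercetin, with overlapping groups. In white fat, vehicle 1 held 40.1 CPM and the other five libraries 0.477 to 1.34 CPM, so the white fat estimate of -4.18 rested on that library. White fat vehicle 1 also carried another flow cell name than the brown fat libraries. For Ndufa12 the differences were 1.60 ± 0.62 against muscle and 0.57 ± 0.62 against white fat (adjusted p 0.9999 or more in both, edgeR).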

How the data were processed

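Raw read counts per gene were deposited by the authors for each library, as HTSeq writes them; the submitters' processing notes name HISAT2, HTSeq, DESeq2 and the mm10 build, without versions, annotation release or strand setting. The labels' protocols give TRIzol extraction and an NEBNext Ultra library kit. From the 53465 gene rows of each file, after dropping 5 summary lines (reads without a feature made up 2.91% to 5.86% of the total in brown fat and ambiguous reads 7.33% to 8.59%), 53360 identifiers matched GENCODE M21 symbols. Genes were filtered with filterByExpr (10 counts, total of 15) and tested with edgeR 4.0.16 in R 4.3.3 (TMM scaling, quasi-likelihood F test, two-sided, Benjamini-Hochberg, threshold 0.05). DESeq2 1.42.0 and limma 3.58.1 served as alternatives. The functions were tested on simulated data. The genes named were the 10 with the smallest p in each direction that had a symbol other than a predicted one, the 3 with the smallest p of each of 28 function lists, the 2 highest of each of 16 cell type lists, and a set of marker genes; other genes were named after their values were seen. Members and lists were chosen with earlier results of these data known, and the liver list and the fit without both vehicle 1 and quercetin 3 were added after seeing the data. Exact permutation of 3 against 3 libraries cannot go below 0.1. No pair of libraries within a group differed by as little as counting noise (chi-square per degree of freedom at least 27.7). All 6 libraries share a flow cell name, so no comparison within batches arose.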

Additional observations from a re-analysis of the deposited data

How the results depend on the processing

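With at least 8436308 counts per library, genes under 1 CPM rested on few counts; for the others the spread between 3 libraries per group set the intervals. The count of genes past the threshold was 0 with voom and library quality weights, with DESeq2's size factors or muscle-free scaling in edgeR, without a filter, at a mean of 1 CPM, in the fit of all 18 libraries, with muscle level as a covariate and without muscle-high genes. Unadjusted p under 0.05 was met by 237 to 840 genes in these. DESeq2 called 3 genes, of which 2 were named ones (Alb 6.96, Slc25a34 -2.75) and 1 a list member, Alb. Leaving out 1 library gave 0 to 1 calls and 167 to 930 genes with an unadjusted p under 0.05 (without vehicle 1 and without quercetin 2). With vehicle 1 and quercetin 3 both left out 1 gene passed, Gm12033, which the filter kept out of the main fit. Named genes and list members gave 0 calls in all fits but DESeq2, and both tissue contrasts gave 0 in every fit.

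With the replicate number as a block, 0 genes passed and 178 had an unadjusted p under 0.05; deviations of same-numbered libraries correlated at -0.19, 0.28 and -0.01 (highest for a library's own number only for number 2), so the numbers were not taken as pairs, and the block changed no call. It reversed Adrb3 (0.19) and Pparg (-0.020).

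Among the estimates for named genes in these fits, 39 had the opposite sign and 1041 kept sign and side of the threshold, and the cause was not tested. With both libraries left out these were Ucp1 (0.13), Cidea (0.28), Prdm16 (0.28), Plin1 (0.27), Pnpla2 (0.091), Cpt1a (0.35), Rsad2 (-0.59), Usp18 (-0.38) and Cxcl10 (-1.65). With voom they were Cidea (0.15), Prdm16 (0.38), Plin1 (0.10), Pnpla2 (0.088) and Cpt1a (0.043). Cidea, near 0 in the main fit (-0.0035), also gave 0.015 with DESeq2, 0.013 with its size factors, 0.0041 at a mean of 1 CPM and 0.020 with 18 libraries. Pparg gave -0.0054 without a filter and -0.075 with the muscle covariate. Leaving out 1 library gave -0.63 to 0.13 for Ucp1, -0.44 to 0.43 for Cidea, -0.42 to 0.21 for Prdm16, -1.08 to 0.13 for Adrb3, -0.21 to 0.26 for Pparg, -0.12 to 1.13 for Scd1, -0.11 to 1.75 for Acly, -0.50 to 0.068 for Plin1, -0.35 to 0.16 for Pnpla2, -1.98 to 0.46 for Cpt1a, -0.39 to 3.65 for Rsad2 and -1.42 to 6.997 for Cxcl10.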

Other observations

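The libraries numbered vehicle 1 held the highest value of Slc25a34, Tmem82 and Acot2 in each of the 3 tissues, as CPM of each library's total. Slc25a34 was at 159.9 CPM in brown fat vehicle 1 against 8.58 to 79.9 in the other brown fat libraries, at 58.6 in muscle vehicle 1 against 17.3 to 34.5 in the other muscle libraries, and at 42.7 in white fat vehicle 1 against 0.655 to 1.91 in the other white fat libraries. Acot2, a mitochondrial thioesterase whose reads can be shared with the near-identical Acot1, was at 639.8 CPM in brown fat, 347 in muscle and 45.6 in white fat of vehicle 1, against at most 71.4, 39.5 and 18.2 in the other libraries of each tissue. Peg3, an imprinted zinc finger gene, was at 504 CPM in brown fat vehicle 1 against 7.36 to 25.96 in the others and at 290.2 in white fat vehicle 1 against 2.62 to 27.5, but in muscle vehicle 1 (47.7 CPM) it was below muscle quercetin 1 (57.3). Fasn was lowest in vehicle 1 in brown fat (446 CPM) and in muscle (9.12 CPM) and not in white fat (1117 CPM, above 284 and 644 in vehicle 2 and 3). No label says that a number stands for the same mouse in different tissues. White fat vehicle 1 carried another flow cell name than brown fat vehicle 1 and muscle vehicle 1.

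Isg15, an interferon-stimulated gene, was high in brown fat quercetin 3 but not in the other libraries numbered quercetin 3. As CPM of each library's total, it was at 759 there, at 1.44 in muscle quercetin 3 and at 32.5 in white fat quercetin 3. The other white fat libraries held 2.21 to 89.9 CPM.

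Gm12033, a processed pseudogene at chr11:20335012-20336013, was either nearly absent or abundant in a library. It had 3850 and 2582 counts in brown fat quercetin 1 and 2, against 1 to 4 in the other 4 brown fat libraries, quercetin 3 included. It also had 4097 counts in muscle vehicle 3, 4904 in muscle quercetin 3 and 1162 in white fat quercetin 2, and at most 36 in each other muscle or white fat library, so high libraries occurred in both treatments and in all 3 tissues. Reads of a processed pseudogene can come from its parent gene.

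Liver transcripts were counted with a list added after Alb was seen. It includes Alb, so its counts are not independent of the value that prompted it. Of its 20 genes, 6 could be tested and all 6 had estimates above 0 (median 0.94, 1 with an unadjusted p under 0.05). Of all genes tested, 54.9% had estimates above 0. Without quercetin 3, 9 could be tested, with 7 estimates above 0 and 2 below (median 0.86). The filter on low counts can admit a gene through its quercetin libraries alone, which fixes a positive sign. Alb entered in this way, at 2, 0 and 4 counts with vehicle and 516, 39 and 68 with quercetin. Which other members did so was not examined, so these shares above 0 lend no support beside the 54.9%. With no filter on low counts all 20 had estimates above 0 and 15 an unadjusted p under 0.05 (median 4.08), and with DESeq2 19 of 19 and 13 (median 4.22). Over all genes, 518 of 25778 were higher at that p with no filter and 268 of 25479 with DESeq2. Such fitted medians depend on how counts near 0 are handled. As CPM of each library's total, Apoa1, a plasma lipoprotein gene, was at 22.7 in brown fat quercetin 1, the library with the most Alb. It was at 0 to 2.30 CPM in the other brown fat libraries. The summed list was at 115 to 563 CPM with vehicle and at 327 to 825 CPM with quercetin.

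Among the 241 genes with an unadjusted p under 0.05, 11 neighbouring pairs lay less than 20000 bases apart, and 9 of these had estimates of one sign. The pairs are not separate loci, since Atl1, Sav1, Gm19144 and Gm19221 form a run, as do Tmem82, Slc25a34 and Plekhm2. A share of one sign among neighbouring genes in general was not computed. Besides the genes around Slc25a34, the pairs of one sign included Acot1 with Acot2 and Zim1 with Peg3, in both of which vehicle 1 held the highest level.

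Fold changes varied with transcript size. The median log2 fold change was 0.24 for genes with up to 1000 exonic bases, 0.29 for those with 1000 to 2000, 0.14 for 2000 to 4000, -0.00 for 4000 to 8000 and -0.16 for over 8000 bases. Without quercetin 3 those medians were 0.02, 0.12, 0.02, -0.03 and -0.10. The rank correlation of fold change with exonic length across genes, which share the same 6 libraries, was -0.29 with all libraries and -0.11 without quercetin 3. The relation differed by library. A gene's log2 level relative to its mean over the 6 libraries correlated with length at 0.26, 0.02 and 0.02 in vehicle 1 to 3. In quercetin 1 to 3 the values were -0.20, 0.26 and -0.26, so the quercetin libraries did not share a sign. Tead1 falls in the longest of these classes and Ndufa12 in that of 1000 to 2000 bases, and the part of length in their values was not tested. Nor was its part in the medians of the gene lists.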
